A study of Mus musculus with 4 samples.

Results

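The subject is the set of autosomal binding sites of the meiotic cohesin subunit SMC1B that had no SMC3 site nearby. A site here is a peak summit, the single base at which the authors' peak caller placed the maximum of a ChIP-seq peak. Summits of tagged SMC1B (SMC1B-LAP) on chromosomes 1 to 19 were kept where no SMC3 summit lay within 5000 bp on the same chromosome, both targets at a false discovery rate (FDR) of 0.1. This left 6932 of 9522 autosomal SMC1B-LAP summits, or 72.8% (95% exact binomial interval 71.9% to 73.7%), which are called SMC3-distant summits below. They were set beside the 1332 summits (14.0%) with an SMC3 summit within 500 bp, called shared summits. The other 1258 (13.2%) had their nearest SMC3 summit over 500 and up to 5000 bp away and are called intermediate summits. Members were chosen by measured positions in both lists, so their number is a description, and no test was made between the classes.

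Both libraries came from spermatocytes, the meiotic cells of the testis, of C57BL/6 mice with a construct that adds a LAP tag to the N-terminus of SMC1B. The LAP tag contains GFP. Testis cells were fixed with formaldehyde, sorted for GFP fluorescence and pooled. SMC3 was precipitated with a rabbit polyclonal antibody, and SMC1B-LAP with a goat polyclonal antibody against GFP. All 4 libraries of the series, including the 2 inputs, carry the same strain and construct, so no untagged control is among them. The labels used here give no age for the animals. Only the 2 ChIP libraries were analysed. Each target has 1 library, so no value below has a replicate check. Intervals cover the counting error of summits only, and they treat summits as independent, which clustered summits are not.

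Cohesin is a ring of an SMC1-type subunit, SMC3, a kleisin and a further regulatory subunit. It holds sister chromatids together and builds the axis along which the chromatin loops of meiotic chromosomes are arranged. SMC1B is the meiosis-specific form of the SMC1 subunit and pairs with SMC3, so a ring that contains SMC1B is known to contain SMC3 as well. SMC1A, the other form, also pairs with SMC3 and is found in spermatocytes too.

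The SMC3 list held 16279 autosomal summits at FDR 0.1. A length comparison shows how much room these leave. Of the 2414 Mb of autosomal extent between the first and the last summit of any list, 93.9% lay over 5000 bp from every SMC3 summit, 5.49% between 500 and 5000 bp, and 0.664% within 500 bp. Divided by these lengths, SMC3-distant summits numbered 3.06 per Mb, intermediate summits 9.50 per Mb, and shared summits 83.0 per Mb. SMC1B-LAP summits were thus densest at SMC3 summits, yet most of them lay in the large remainder of the chromosomes.

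SMC3-distant summits were mostly weak calls. The score that the authors deposited for a summit was read as the −log10 of its q-value. On that reading a score of 1 is an FDR of 0.1 and a score of 2 an FDR of 0.01. The median score of SMC3-distant summits was 1.07, with a 90th percentile of 2.72, against a median of 1.86 and a 90th percentile of 8.44 for shared summits. Many summits share exactly the score of 1.07, called the tied score. It was carried by 3702 SMC3-distant summits, 53.4% (52.2% to 54.6%), and by 320 shared summits, 24.0% (21.8% to 26.4%). Scores of 2 or more were found for 1019 SMC3-distant summits, 14.7% (13.9% to 15.6%), and for 597 shared summits, 44.8% (42.1% to 47.5%). The intervals of the classes do not overlap in either measure. Depth behind a score is unknown, since the lists hold no read counts.

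**Figure D1:**
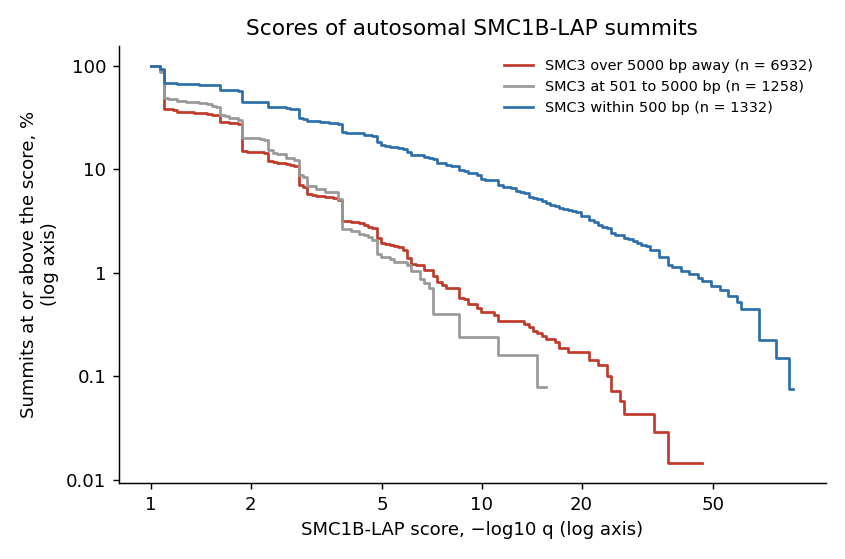
Share of summits (vertical, %, log axis) at or above each SMC1B-LAP score (horizontal, −log10 q, log axis) for the 3 classes of autosomal summits. The curve of SMC3-distant summits runs below that of shared summits and ends at 45.7, that of shared summits at 85.2.

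The difference in scores was seen on every autosome. The share at the tied score was 53.7% ± 4.20 (SD over 19 autosomes) for SMC3-distant and 24.7% ± 4.54 for shared summits, and it was higher for the SMC3-distant summits on 19 of 19 autosomes. It ranged from 44.4% on chromosome 9 to 60.8% on chromosome 19 for SMC3-distant summits, and from 15.5% to 35.0% for shared summits, so the ranges did not overlap. The share with scores of 2 or more was lower for SMC3-distant summits on all 19 autosomes, at 14.8% ± 3.08 against 44.2% ± 7.45. Chromosomes of 1 library are not replicates, and these counts describe how evenly the pattern was spread within it.

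Read by score, the SMC3-distant share fell from class to class above the tied score. At the tied score, 3702 of 4517 summits were SMC3-distant, 82.0% (80.8% to 83.1%). The share was 70.4% above the tied score and below 2, 62.9% at scores of 2 to 3, 52.4% at 3 to 5 and 44.4% (38.0% to 50.9%) at 5 to 10. At 10 or more it was 20.7% (14.3% to 28.4%), from 29 of 140 summits. The 841 summits below the tied score departed from this order, with a share of 70.5%. All of these shares were below 93.9%, the share of the extent that lies over 5000 bp from SMC3.

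A small group of SMC3-distant summits scored high. The 29 with scores of 10 or more lay on 16 autosomes, 9.77 to 456 kb from the nearest SMC3 summit, with a median of 81.7 kb. Of these 29, 3 had another SMC1B-LAP summit within 10 kb, and the median distance to one was 111 kb. Among all SMC3-distant summits, 15.4% had such a neighbour, and the median distance was 70.9 kb. Of the 108 shared summits with scores of 10 or more, 15 had such a neighbour. Having no close neighbour was thus common in the whole class and not particular to its high scorers. Among the 100 highest autosomal SMC1B-LAP summits, 22 were SMC3-distant and 76 shared. The highest was at position 16604726 of chromosome 2, with a score of 45.7, rank 12 of all autosomal summits. Its nearest SMC3 summit was 81.7 kb away and had a score of 1.88, and its nearest SMC1B-LAP summit was 216 kb away. The next, at position 83417357 of chromosome 10, scored 35.5 and had its nearest SMC3 summit at 163 kb. Position 88448112 of chromosome 9 followed, with a score of 33.1 and SMC3 at 102 kb. The other 7 of the 10 highest scored 22.1 to 26.2. They lay at position 25000162 of chromosome 11, 45215727 of chromosome 18, 52879070 of chromosome 7, 58952080 of chromosome 15, 57242082 of chromosome 16, 152786780 of chromosome 3 and 68836583 of chromosome 8. The chromosome 15 summit, with a score of 24.0, was the most remote of the 10, 456 kb from SMC3. The chromosome 8 summit, with a score of 22.1, was the nearest, 9.77 kb from an SMC3 summit that scored 4.96. All positions are 1-based on mm9. No gene is assigned to them, because no mm9 annotation was used here.

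The deposited lists carry running numbers that rise with position along each autosome, so a jump between 2 listed SMC3 summits was read as the number of initial SMC3 calls between them that did not pass FDR 0.1. These unlisted calls cannot be placed more exactly. The highest running number was 94678 for SMC3 and 1510655 for SMC1B-LAP, so on this reading far fewer initial calls were made for SMC3. The reason for this difference is unknown. SMC3 signal too weak for an initial call leaves no number, so a stretch without unlisted calls need not lack such signal. Of the SMC3-distant summits, 6843 lay between 2 listed SMC3 summits, and the stretch around them held a median of 7 unlisted SMC3 calls. For 187 of them, 2.73% (2.36% to 3.15%), that stretch held none, so the numbers leave no rejected SMC3 call between the flanking summits. Of all 16260 stretches between neighbouring SMC3 summits, 3706 held no unlisted call, and of the 4393 with an SMC3-distant summit, 163. The 187 lay in short stretches, with a median of 52.1 kb, against 221 kb for the 4393. At 20 to 50 kb, 73 of 259 stretches with an SMC3-distant summit held no unlisted call, against 847 of 2237 without such a summit. The 187 and the median of 7 thus cannot be read apart from stretch length. These 187 had a tied-score share of 56.1% (48.7% to 63.4%), near that of all SMC3-distant summits, and 33 of them scored 2 or more. The highest of them scored 14.5. The stretch around the chromosome 2 summit with the score of 45.7 was 327 kb long and held 4 unlisted SMC3 calls.

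Over all lengths, stretches between neighbouring SMC3 summits held similar numbers of unlisted SMC3 calls per Mb with and without an SMC3-distant summit in them. The 4393 stretches with at least 1 such summit had 30.5 unlisted calls per Mb, and the 11867 stretches without had 31.7. Set against stretches of like length, the order varied. For stretches of 20 to 50 kb the value was higher where SMC3-distant summits lay, 53.2 per Mb over 259 stretches with and 34.5 over 2237 without. It was also higher with them at 50 to 100 kb, 34.0 against 30.8, and at 100 to 200 kb the values were 30.7 and 30.2. At 200 to 400 kb it was lower with them, 28.4 against 30.9. The median number of unlisted calls per stretch was the same with and without SMC3-distant summits in each length class. From the shortest to the longest class it was 1, 2, 4 and 8, so the pooled values do not describe a typical stretch. Leaving out crowded windows (those of 100 kb with 10 or more SMC1B-LAP summits) gave 51.7 against 34.5 at 20 to 50 kb and 33.8 against 30.8 at 50 to 100 kb.

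Next, the distance to SMC3 was examined within the class. Distances ran from 5.00 to 746 kb, with a median of 53.5 kb and quartiles of 23.3 and 107 kb. The bases of the same extent over 5000 bp from SMC3 have a median distance of 64.3 kb and quartiles of 28.9 and 128 kb, so SMC3-distant summits lay somewhat nearer to SMC3 than this extent as a whole. Their number per Mb fell with each step away, from 4.41 at 5 to 10 kb through 3.65 at 10 to 20 kb, 3.25 at 20 to 50 kb, 3.07 at 50 to 100 kb and 2.64 at 100 to 200 kb to 2.21 beyond 200 kb. The extent includes assembly gaps, in which no summit can be called.

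Scores were slightly lower far from SMC3. The share at the tied score was 50.3% (46.2% to 54.4%) at 5 to 10 kb, 48.9% (45.6% to 52.3%) at 10 to 20 kb and 58.5% (54.4% to 62.4%) beyond 200 kb. The last interval just overlaps that at 5 to 10 kb and lies above that at 10 to 20 kb. Scores of 2 or more made up 16.3% (13.4% to 19.5%) and 13.9% (11.2% to 16.9%) at 5 to 10 kb and beyond 200 kb, with overlapping intervals. Shared summits, with 44.8%, stood far above both. Intermediate summits lay nearer to the SMC3-distant than to the shared ones in these measures, with a median score of 1.07, 39.3% (36.6% to 42.1%) at the tied score and 20.0% (17.8% to 22.3%) at 2 or more. High scores were thus more frequent with an SMC3 summit within 500 bp than at any of the longer distances.

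**Figure D2:**
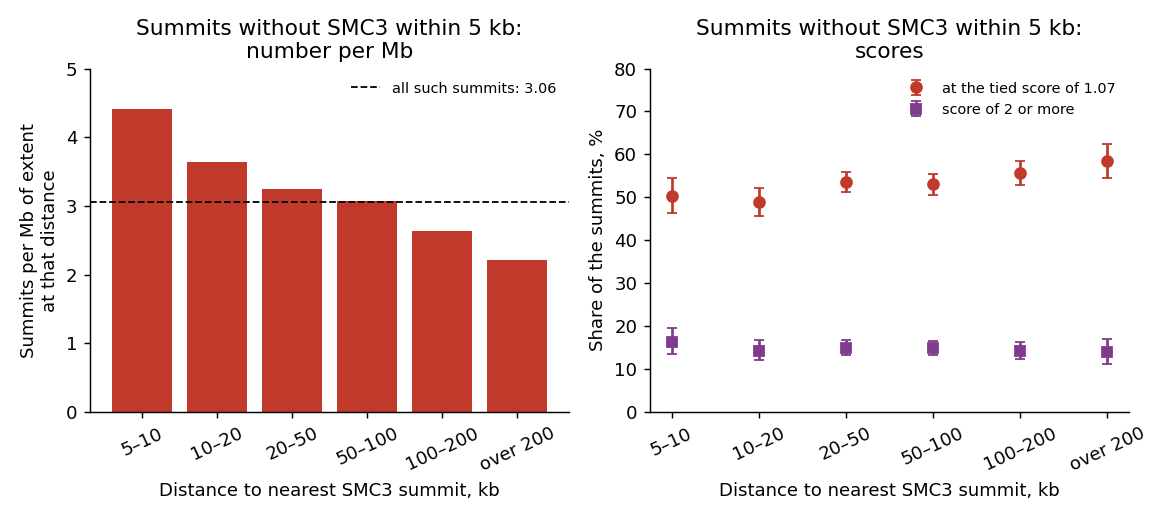
SMC3-distant summits by distance to the nearest SMC3 summit (horizontal, kb): number per Mb of extent at that distance (left, bars) and share with the tied score or with a score of 2 or more (right, %, points with 95% exact binomial intervals). The number falls from 4.41 to 2.21 per Mb, while the share with a score of 2 or more stays between 13.9% and 16.3%.

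The 3 summits just beyond the threshold of 5000 bp, at 5003, 5009 and 5014 bp, scored 2.22, 1.07 and 3.27. They lay at position 72034031 of chromosome 8, 52583445 of chromosome 4 and 156790329 of chromosome 3. The 3 just short of it, at 4998, 4997 and 4968 bp, all scored 1.07, at position 73233673 of chromosome 10, 150917236 of chromosome 2 and 3086694 of chromosome 11. At the far end, the 5 most remote summits scored 1.04 to 1.98. They were position 11358757 of chromosome 8 at 746 kb from SMC3, 12441650 of chromosome 8 at 713 kb, 28363762 of chromosome 14 at 706 kb, 163478578 of chromosome 2 at 688 kb and 94142406 of chromosome 1 at 676 kb. Both chromosome 8 summits lay in the same stretch of 2542 kb between listed SMC3 summits, which held 106 unlisted SMC3 calls.

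Spacing was then compared as the distance from each summit to the nearest other SMC1B-LAP summit of any class. The median was 70.9 kb (67.5 to 73.9 kb) for SMC3-distant and 69.8 kb (62.0 to 78.5 kb) for shared summits, and the intervals overlap. Both were below the 87.9 kb calculated for the same number of summits at an even density. Which class had the longer median depended on the settings, and the order turned in 7 of 10 alternatives. It was 67.5 kb against 81.1 kb for shared summits with SMC3 at FDR 0.001, and shared summits within 100 bp of SMC3 had 82.0 kb. With SMC1B-LAP at FDR 0.5 the medians were 20.0 kb for SMC3-distant and 14.7 kb for shared summits. Intermediate summits had a shorter median, 38.8 kb (33.9 to 46.5 kb). Measured only to summits of their own class, SMC3-distant summits had a median of 96.2 kb, which is 79.7% of the value for an even density, and shared summits 519 kb, which is 82.6%.

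At short range fewer SMC3-distant than shared summits had a neighbour. Another SMC1B-LAP summit lay within 10 kb of 1069 of them, 15.4% (14.6% to 16.3%), against 19.8% (17.7% to 22.1%) of shared summits. Within 1 kb the shares were 4.39% (3.92% to 4.89%) and 7.36% (6.01% to 8.89%). Without crowded windows the shares within 1 kb were 3.21% (2.80% to 3.65%) and 6.82% (5.52% to 8.31%). The 10 kb difference depended on how close SMC3 had to be, since shared summits taken within 100 bp of SMC3 had a share of 15.2%, just below that of SMC3-distant summits. SMC3-distant summits with a neighbour within 10 kb scored somewhat higher: 20.8% (18.4% to 23.3%) had scores of 2 or more, against 13.6% (12.7% to 14.5%) of those without. Outside crowded windows that share was 17.6% (15.2% to 20.1%). For shared summits the order was the other way, 40.2% (34.2% to 46.3%) with a neighbour within 10 kb and 46.0% (43.0% to 49.0%) without. The intervals of these last 2 values overlap.

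**Figure D3:**
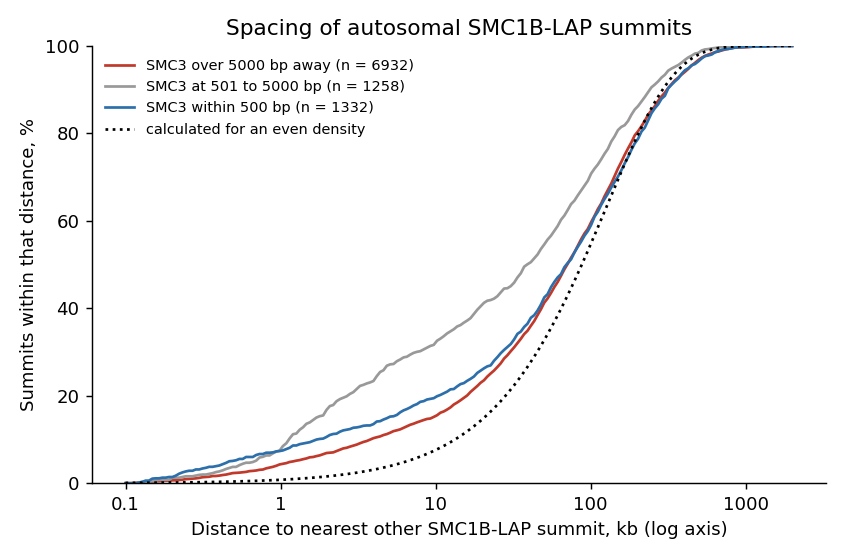
Share of summits (vertical, %) whose nearest other SMC1B-LAP summit lies within a given distance (horizontal, kb, log axis), for the 3 classes, with a dotted line calculated for an even density. SMC3-distant and shared summits cross the middle at nearly the same distance, 70.9 and 69.8 kb, and part below 10 kb.

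The surroundings of SMC3-distant summits were not poor in SMC3. In the ring from 5 to 100 kb around them, SMC3 had 8.83 summits per Mb, against 9.93 around shared summits and 6.74 over all autosomes. Without summits in crowded windows the values were 8.34 and 9.21. No SMC3 summit lay in that ring for 1908 SMC3-distant summits, 27.5% (26.5% to 28.6%), and for 28.2% (25.8% to 30.7%) of shared summits, so the intervals overlap. SMC1B-LAP itself had 8.78 summits per Mb in the ring around SMC3-distant and 6.88 around shared summits, against 3.94 over all autosomes. Without summits in crowded windows the order turned, with 5.10 and 5.75. The initial SMC1B-LAP call, read from its running numbers within 50 kb to either side, had a median of 0.624 calls per kb (0.622 to 0.626) around SMC3-distant and 0.622 (0.617 to 0.628) around shared summits. Weak SMC1B-LAP summits, which passed only an FDR of 0.5, lay within 5000 bp of 20.2% (19.3% to 21.2%) of SMC3-distant and 19.2% (17.1% to 21.4%) of shared summits. The intervals of SMC3-distant and shared summits overlap in each of the 3 measures that have one. Intermediate summits stood apart in the ring, where 19.1% (16.9% to 21.4%) had no SMC3 summit. They also stood apart in weak SMC1B-LAP summits within 5000 bp, with 37.1% (34.4% to 39.9%). Their initial SMC1B-LAP calls, with a median of 0.628 per kb (0.623 to 0.635), had an interval that overlaps those of both other classes.

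Most SMC3-distant summits were single. Joining those no more than 10 kb apart gave 5944 single summits, which are 85.7% of the class, 385 pairs, 38 groups of 3, 6 groups of 4 to 9, and 1 group of 74. Of shared summits, joined in the same way among themselves, 90.2% were single. Shared summits are sparser, with a mean over autosomes of 0.549 per Mb against 2.86 per Mb for SMC3-distant summits. A lower density by itself leaves more summits single, so these shares do not show which class was more grouped. Of 24157 windows of 100 kb, 77.0% held no SMC3-distant summit, 4498 held 1, 877 held 2 and 2 held more than 5. The variance of the count per window was 1.97 times its mean. Without the 2 windows holding more than 5 it was 1.17 times, and for shared summits 1.18 times. The higher ratio of SMC3-distant summits thus came from those 2 windows. For shared summits no window was left out, and their fullest held 6. At a given degree of clustering the ratio grows with the mean count, which was 0.287 per window for SMC3-distant summits and lower for shared summits. The ratios of 1.17 and 1.18 therefore do not show equal clustering.

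The fuller of them is at the start of chromosome 9. The window from 3.0 to 3.1 Mb held 74 SMC3-distant summits, all within 37.4 kb between positions 3000115 and 3037531, with a median of 322 bp to the next SMC1B-LAP summit. No SMC3 summit lay among them. The 4 SMC3 summits of the window lay between positions 3079683 and 3093916, and the window's 2 remaining SMC1B-LAP summits were shared with them. Scores at this locus were higher than in the class at large: the median was 2.26, the highest 8.44, 45 of 74 scored 2 or more, and 6 had the tied score. Of 111 initial SMC1B-LAP calls spanned by the window's listed summits, 76 passed FDR 0.1, or 68.5%, against 0.644% over all autosomes. Mouse autosomes have their centromere at the end where coordinates start, so this locus lies at the centromeric end of chromosome 9.

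The next window was chromosome 8 from 72.0 to 72.1 Mb, with 16 SMC3-distant summits, 5 intermediate summits, none shared, and 6 SMC3 summits. Of these 16, 6 scored 2 or more, and the highest score was 5.05. Its neighbour from 71.9 to 72.0 Mb held 5, as did windows of chromosome 14 from 44.7 to 44.8 Mb and from 5.7 to 5.8 Mb. The other 2 windows with 5 were on chromosome 1 from 19.8 to 19.9 Mb, where all 5 SMC1B-LAP summits lay within 5.70 kb, and on chromosome 14 from 8.2 to 8.3 Mb. Other places dense in SMC1B-LAP held few SMC3-distant summits. The 7 crowded windows of the autosomes held 103 of them in all, and 90 of these were in the windows of chromosomes 9 and 8 just described. The crowded window of chromosome 5 from 14.9 to 15.0 Mb held 22 SMC3 summits and 11 SMC1B-LAP summits, of which 1 was SMC3-distant.

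Along the chromosome, SMC3-distant summits came in runs unbroken by an SMC1B-LAP summit nearer to SMC3. There were 1657 such runs with a median length of 3 and a mean of 4.18, and 143 runs of 10 or more held 29.1% of the class. Since the class makes up 72.8% of all SMC1B-LAP summits, long runs arise in any order of the summits. Run lengths for a random order were not calculated, so these lengths are a description only. Shared summits never exceeded 6 in a row, and they are fewer in all. After the 74 on chromosome 9, the longest runs were 27 summits on chromosome 12 from 65.3 to 70.2 Mb and 27 on chromosome 2 from 61.3 to 70.5 Mb. Runs of 24 followed on chromosome 19 from 22.1 to 31.3 Mb and on chromosome 2 from 101.4 to 108.4 Mb. These stretches were not free of SMC3: they held 39, 43, 35 and 28 SMC3 summits in the same order. On chromosome 12 this was 8.08 SMC3 summits per Mb, above the 6.74 of all autosomes, and on the other stretches it was 3.80 to 4.67 per Mb. The chromosome 12 run thus spanned 4.83 Mb in which both targets had many summits, none of the SMC1B-LAP ones within 5000 bp of an SMC3 one.

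Position along the autosomes was examined in 10 equal parts of each extent. The first 10% of the extent, at the end with the centromere, held 952 SMC3-distant summits, 13.7% (12.9% to 14.6%), and 160 shared summits, 12.0% (10.3% to 13.9%). Over the autosomes the shares were 13.3% ± 5.58 and 11.6% ± 5.03 (SD, 19 autosomes). The share was above 10% on 16 autosomes for SMC3-distant and on 13 for shared summits, and higher for SMC3-distant summits on 12 of 19. The SDs describe how the autosomes differ. The spread of the difference between the classes within autosomes was not calculated, so the SDs do not show how certain that difference is. With SMC1B-LAP at FDR 0.5 the order turned, with 11.4% of SMC3-distant and 12.5% of shared summits in the first 10%. SMC3 summits themselves had 11.8% there. Without crowded windows the share of SMC3-distant summits was 12.8% (12.0% to 13.6%). The last 10% held 8.41% (7.77% to 9.09%) of SMC3-distant and 9.83% (8.29% to 11.6%) of shared summits, with overlapping intervals again, and the SMC3-distant share was the lower one on 12 of 19 autosomes.

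**Figure D4:**
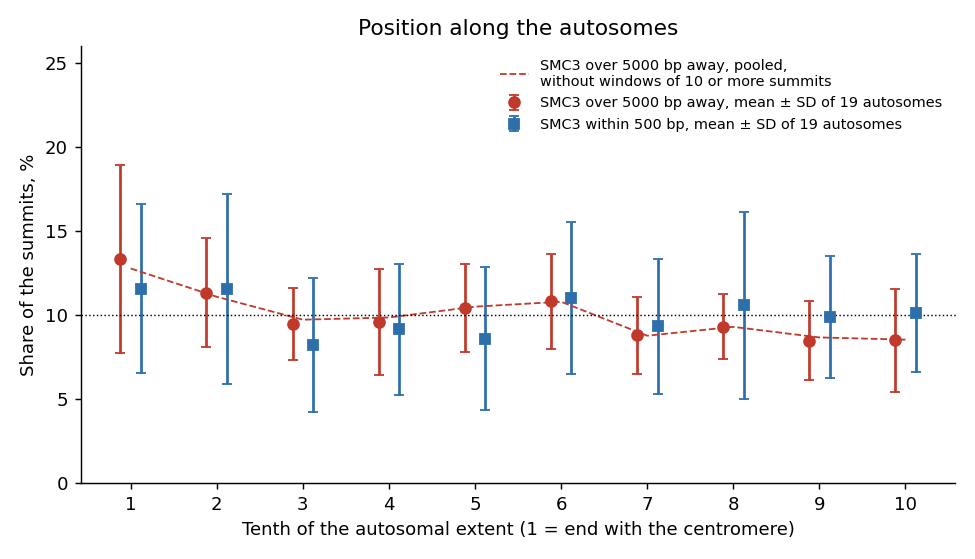
Share of summits (vertical, %) in each of 10 equal parts of the autosomal extent (horizontal, 1 is the end with the centromere) for SMC3-distant (circles) and shared summits (squares), as mean ± SD over 19 autosomes, with the pooled share outside crowded windows as a dashed line. The first is highest for SMC3-distant summits, at 13.3%, and the bars of the classes overlap in all 10. The bars describe how the autosomes differ and not the error of a difference between the classes.

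Scores also varied with position. In the first 10% of the extent 45.4% of SMC3-distant summits had the tied score and 18.5% scored 2 or more. In the last 10% these shares were 58.5% and 13.7%. With crowded windows left out, 131 of 872 in the first 10% scored 2 or more, and 14.2% of the whole class did. For shared summits the share at the tied score ran the other way, 28.1% in the first 10% and 11.5% in the last. Of the SMC3-distant summits with scores of 2 or more, 17.3% (15.0% to 19.7%) lay in the first 10%, against 11.7% (10.7% to 12.7%) of those with the tied score. Outside crowded windows, the first of these values was 13.5% (11.5% to 15.9%), whose interval overlaps that of the summits with the tied score.

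The autosomes carried SMC3-distant summits at similar densities. The density was 2.86 per Mb ± 0.317 (SD over 19 autosomes), and their share of all SMC1B-LAP summits ran from 67.2% on chromosome 8 to 77.8% on chromosome 9. Only chromosomes 14, 11 and 19 departed by more than 1.2 times from the 2.87 per Mb of all autosomes, as a description without a test. Chromosome 14 had 3.57 per Mb, 1.24 times the mean, chromosome 11 had 2.25, 0.783 times, and chromosome 19 had 2.23, 0.777 times. SMC3 summits departed in the same directions on these 3 chromosomes, at 1.16, 0.834 and 0.824 times their own mean. Shared summits stood at 1.08, 0.946 and 0.622 times theirs.

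The first 10% of chromosomes 9 and 14 held the largest shares of any autosome. On chromosome 9 it held 30.0% of the chromosome's 367 SMC3-distant summits, and 12.3% (8.76% to 16.6%) once the crowded window was left out. On chromosome 14 it held 25.2% of 436, and 24.4% (20.4% to 28.7%) without that chromosome's crowded window, so the share there hardly moved. The density in that part was 9.01 per Mb, against 2.97 over the rest of chromosome 14 and 2.74 beyond the first 10% of the other autosomes. The like part of the other autosomes, their first 10%, was not given a density. Over all autosomes the first 10% held 13.7% of SMC3-distant summits. SMC3 placed 18.1% of its chromosome 14 summits in the same part, and shared summits 12.3%.

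**Figure D5:**
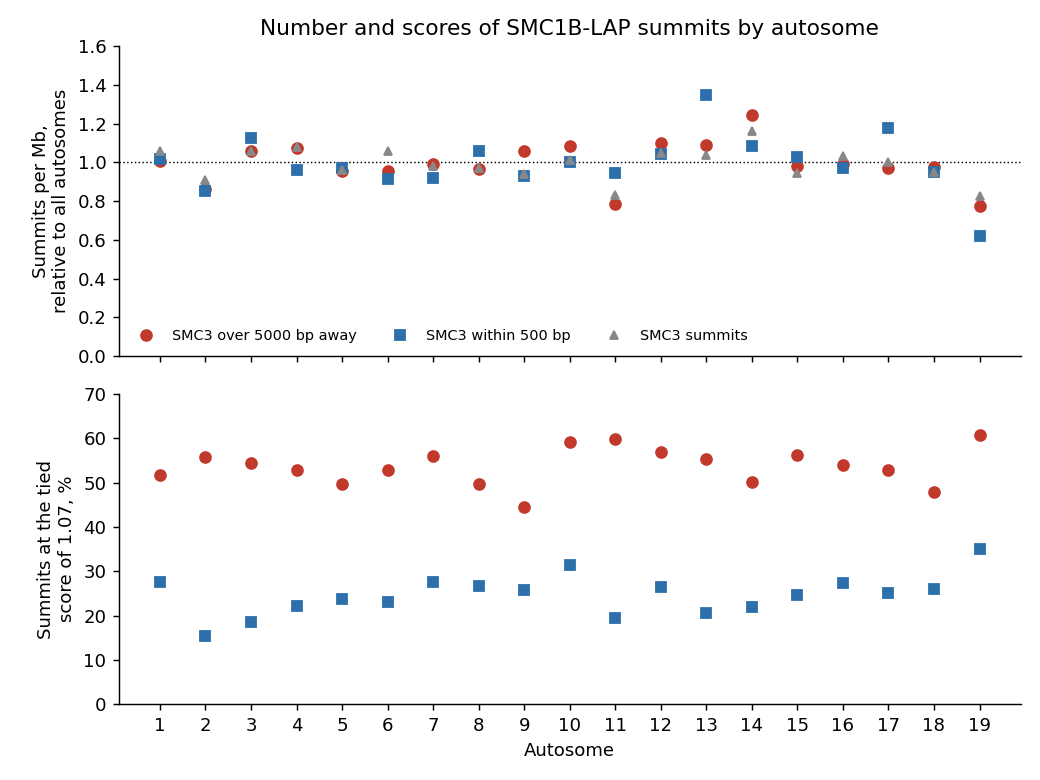
Summits per Mb relative to all autosomes (top) and share of summits with the tied score (bottom, %) for each autosome (horizontal), for SMC3-distant summits (circles), shared summits (squares) and, in the top panel, all SMC3 summits (triangles). Circles reach 1.24 on chromosome 14 and fall to 0.777 on chromosome 19. In the bottom panel every circle is above every square.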

How the data were processed

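Per the submitters' processing notes, reads were aligned to mm9 with Bowtie2 0.12.8 and peaks were called with MACS2. No source used here states the use of the inputs, duplicate handling or the cutoff of the initial call. The authors deposited lists of summits with a score, read as the −log10 of the q-value because no list holds a score below the one its FDR allows. Depth per sample is unknown. Distances were computed in Python 3.11.15 with numpy 2.4.6, pandas 2.3.3 and scipy 1.17.1, and classes were checked on 5 simulated sets without error. Alternatives covered other distances, other FDR lists, score limits, crowded windows and thinning. Shares have exact Clopper-Pearson 95% intervals, medians order-statistic intervals. With 1 library per target no test over samples was possible.

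The members, the measures and the regions to be named were chosen with earlier results of these data known. Named were the 10 highest-scoring and 5 most remote SMC3-distant summits, 5 fullest 100 kb windows, 5 longest runs, 3 summits on either side of the threshold, and autosomes departing over 1.2 times. The sixth and seventh windows named, the chromosome 5 window and the first 10% of chromosomes 9 and 14 were singled out after their values were seen. The planned lowest score step was taken as the most common score. Without an mm9 genome, no sequence or gene is given.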

Additional observations from a re-analysis of the deposited data

How the results depend on the processing

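Of 46 alternative values, 16 stayed within the 95% interval of the reported value, 29 moved outside it, and 1 reversed a difference between SMC3-distant and shared summits whose intervals had not overlapped. Differences with overlapping intervals also changed sign, that of the median distance in 7 of 10 alternatives and that of the share in the first 10% in 1 of 10. The share of SMC3-distant summits was 83.6%, 80.1% and 66.5% with distances of 1000, 2000 and 10000 bp, 83.4% with SMC3 at FDR 0.001, 83.4% with SMC1B-LAP at FDR 0.5, 64.5% without the tied score, 54.6% at scores of 2 or more and 73.8% with 1 summit per 10 kb. The share at the most common score was 51.8% at 1000 bp, 51.4% with SMC3 at FDR 0.001 and 72.7% with SMC1B-LAP at FDR 0.5, where that score is another one, and shared summits were lower in each. The median distance to the next summit was, for SMC3-distant and shared summits, 67.0 and 69.8 kb at 1000 bp, 67.5 and 81.1 kb with SMC3 at FDR 0.001, 20.0 and 14.7 kb with SMC1B-LAP at FDR 0.5, 131 and 139 kb without the tied score, 327 and 338 kb at scores of 2 or more, and 84.7 and 88.0 kb with 1 summit per 10 kb. The last 4 of these lists hold more or fewer summits by construction. The share with a neighbour within 10 kb was 17.5% and 16.8% at 1000 and 2000 bp, 16.8% with SMC3 at FDR 0.001 (17.1% for shared summits), 32.1% with SMC1B-LAP at FDR 0.5, 13.2% without the tied score, 8.44% at scores of 2 or more and 14.2% without crowded windows. It stayed below that of shared summits in these, but was 15.4% against 15.2% when shared meant within 100 bp; the cause was not tested. The share in the first 10% of the extent was 11.4% with SMC1B-LAP at FDR 0.5, below the 12.5% of shared summits (the sign change above), 16.1% without the tied score, 17.3% at scores of 2 or more, 12.8% without crowded windows and 12.6% with 1 summit per 10 kb. Thinning leaves no neighbour within 10 kb, and leaving out low scores leaves no tied score, so these gave no value. No paired analysis was possible because each target has 1 library and the result comes from no test. Without read counts, an SMC3 site too weak for FDR 0.1 cannot be told apart from an absent one.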

Other observations

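SMC1B-LAP summits that passed an FDR of 0.5 but not 0.1 are weaker still, and they lay away from SMC3 more often. Of these 28500 autosomal summits, 24796 had no SMC3 summit within 5000 bp, 87.0% (86.6% to 87.4%), and 3.82% had one within 500 bp. The share without SMC3 was thus above that of the FDR 0.1 list, 72.8%, and below the 93.9% of the extent that lies over 5000 bp from SMC3.

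The start of chromosome 9 passed 68.5% of its initial SMC1B-LAP calls at FDR 0.1. In chromosome 8 from 72.0 to 72.1 Mb 21 of 66 calls passed, 31.8%, and in the other 5 crowded windows of the autosomes 9.62% to 24.4%, against 0.644% over all autosomes. These windows were chosen for their number of summits, so a high share is part of the choice. The initial calls themselves numbered 1.34 per kb at the start of chromosome 9, 0.741 to 1.25 per kb in the other 6 windows and 0.612 per kb over all autosomes.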
